A study of Mus musculus with 12 samples.

Results

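The response of mouse embryonic stem cells to 4-hydroxytamoxifen (4OHT) while the proteasome was inhibited was measured on 6 of the 12 microarrays of the series. The MG132+4OHT group held 3 arrays of cells given 1 µM MG132 for 30 min and then MG132 together with 250 nM 4OHT for 6 h. The MG132 group held 3 arrays of cells given MG132 for the same 30 min and 6 h without 4OHT. These arrays were chosen by their treatment labels alone. The other 6 arrays were 3 of cells given 250 nM 4OHT for 6 h without MG132 and 3 of untreated cells. Their levels are described mainly where the response with MG132 is set against the response without it. They also entered the shared estimate of spread behind every standard error and p-value, the filter on dim probes and the choice of each gene's probe. All 12 cultures grew in embryonic stem cell medium with leukaemia inhibitory factor (LIF) and 250 nM PD173074, an inhibitor of fibroblast growth factor (FGF) receptors. The design text gives 3 biological replicates per condition. The labels give no cell line or clone, no transgene that 4OHT would act on and no vehicle control. Untreated cells are titled as 0 h, so 4OHT and culture time cannot be told apart in the 4OHT and untreated pair, whereas MG132+4OHT and MG132 cells had the same time in culture.

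4OHT, the active metabolite of tamoxifen, serves in engineered lines to activate a protein of interest joined to a mutant oestrogen receptor domain. The series title names the kinase Erk. ERK kinases sit at the end of the RAF and MEK cascade and induce immediate-early genes, a first wave of transcription factors and feedback inhibitors that need no new protein to be switched on. In mouse embryonic stem cells the FGF4 and ERK pathway is known to move cells out of naive pluripotency, and blocking FGF receptors, as PD173074 does, holds it low. MG132 is a peptide aldehyde that blocks the proteasome, the complex that degrades ubiquitin-tagged proteins, among them many short-lived transcription factors. Its known consequences in cells include the heat shock response and the integrated stress response.

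Total RNA was labelled with Cy3 and hybridised to 1-colour Agilent arrays. Intensities are given below after each array was scaled so that its 75th percentile over non-control spots equals 418.9, and all changes are log2 differences of these values with their standard errors. The 75th percentile before scaling was 368.7 to 432.1 on the 6 arrays compared, and 55.34 to 63.2% of probes were well above background there. Within the MG132+4OHT and MG132 groups arrays correlated at 0.9873 to 0.9958 over all probes, against 0.9765 to 0.9822 within the 4OHT group, the lowest of the 4 groups, and no spot was saturated. The number of arrays limits the precision. The 3 MG132+4OHT arrays and MG132 replicate 3 were on slide 2, and MG132 replicates 1 and 2 were on slide 1 with the other 6 arrays. With slide as a fixed block, or on slide 2 alone, the change rests on MG132 replicate 3 as the only MG132 array. Calls of the change with MG132 that ended with slide as a fixed block are named beside the genes concerned. For the difference from the response without MG132 they are named together near the end.

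All 9 embryonic stem cell markers were above background on all 6 arrays, and their summed intensity was 205200 to 238200 on MG132+4OHT arrays and 213400 to 219000 on MG132 arrays. Most of that sum is Dppa5a, and 4 of the 9 were lower (Nanog, Sox2, Tdgf1 and Esrrb) and 1 higher (Dppa4). By the test described below, 13.9% of all genes were called higher and 12.6% lower, and the marker counts here stand beside those shares. Of 13 fibroblast or feeder cell markers 9 were above background on all 6 arrays, and 4 of the 10 that passed the filter rose. Their summed intensity was 46190 to 51160 on MG132+4OHT arrays and 38610 to 40290 on MG132 arrays. Most of that sum is Fn1, Vim and Acta2. Vim had 12060 to 18830 on MG132+4OHT arrays and 4720 to 6725 on MG132 arrays, while Col1a1, Col1a2 and Dcn were not called. Lum, an extracellular matrix proteoglycan of fibroblasts, was above background on none, and Col1a1, the main fibroblast collagen, had 54.2, 53.1 and 76.3 on MG132+4OHT arrays and 44.9, 49.6 and 79.5 on MG132 arrays. Of 9 trophoblast markers 6 were above background on all 6 arrays and 4 rose, with a summed intensity of 10690 to 17800 on MG132+4OHT arrays and 6439 to 7619 on MG132 arrays. Most of the trophoblast sum on MG132+4OHT arrays is Krt18, with 6784 to 13330 there and 2796 to 3923 on MG132 arrays. Gata3, Krt8, Krt7 and Tfap2c were not called. The trophoblast regulator Elf5 was above background on none. All 7 primitive endoderm markers were above background, with sums of 435.8 to 778.4 on MG132+4OHT arrays and 429.5 to 590.6 on MG132 arrays. Of these 1 rose, Foxa2 (change 1.26), and its call ended with slide as a fixed block and without most single arrays. The part that these marker sums have in other results was not tested. Hspa1a, the inducible heat shock protein that rises when the proteasome is blocked, had 14071, 12302 and 13920 on MG132+4OHT arrays and 5324, 5794 and 8246 on MG132 arrays, beside 180.3, 179 and 148 on 4OHT arrays and 247, 237 and 237 on untreated arrays, so every MG132 array stood far above every array without it.

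To ask which genes 4OHT changed in cells whose proteasome was blocked, MG132+4OHT arrays were set against MG132 arrays over 26841 genes, of which 15985 had a symbol. A gene is called where its limma p-value, adjusted over all genes tested by the method of Benjamini and Hochberg, was below 0.05. Of all genes 7108 were called, which is 26.5%. With MG132+4OHT 3723 genes (13.9%) were higher and 3385 genes (12.6%) were lower. Centring each array on its median in place of the 75th percentile turned this split to 2590 higher and 3580 lower. The median change of all genes was 0.07, and the median absolute change of called genes was 0.69. Large changes ran upward: 1105 called genes were at least 2-fold higher and 840 at least 2-fold lower, together 7.25% of all genes, while 333 were at least 4-fold higher and 55 at least 4-fold lower. The 3 arrays of each group did not overlap in 7054 of the 7108 called genes, so their separation adds no support to a call. Over all genes they did not overlap in 50.2%, with the MG132+4OHT arrays above in 27.3% and below in 22.9%. The plot of change against level shows this asymmetry. The number called over all genes moved under most alternatives, and list counts given for an alternative are to be read beside it. Leaving out 1 array gave 4621 to 8826 called genes. The replicate number as a block gave 8636 called genes, 4458 higher and 4178 lower. Slide as a fixed block gave 2987.

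**Figure D1:**
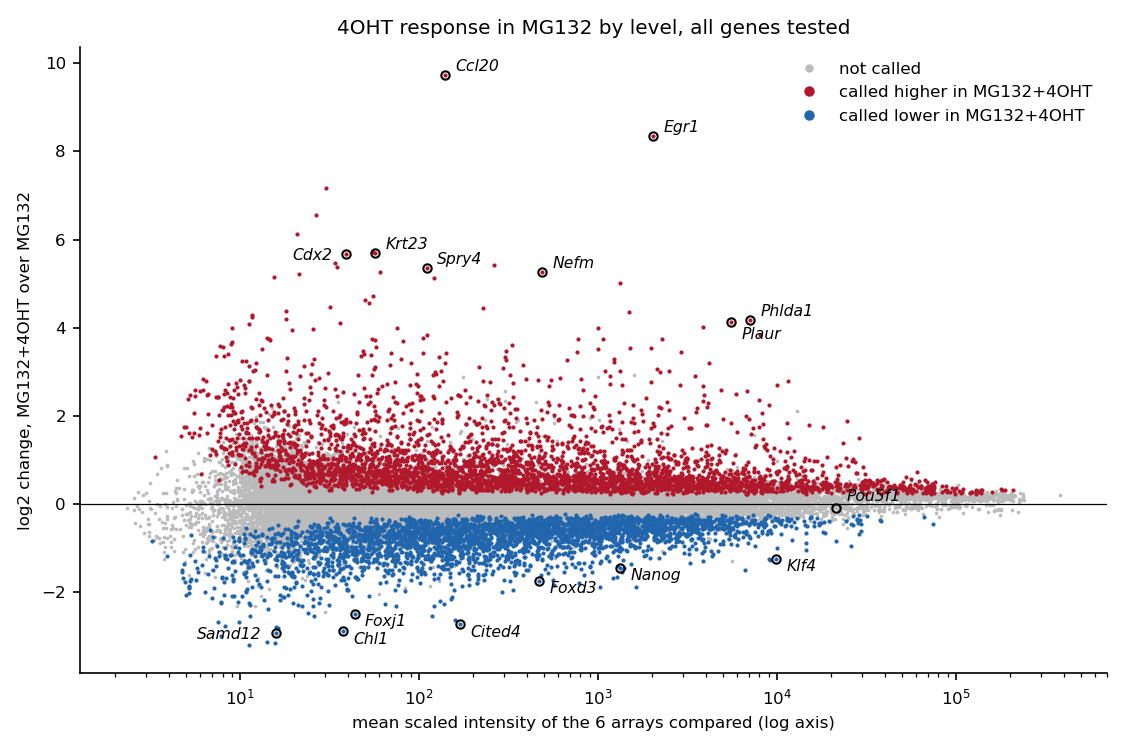
The log2 change of MG132+4OHT over MG132 (vertical axis) is plotted against the mean scaled intensity of the 6 arrays compared (horizontal log axis), 1 point per gene tested. Red points are the 3723 genes called higher, blue points the 3385 called lower, and grey points were not called; Egr1 and Ccl20 lie highest. Genes with a group that was not well above background, such as Ccl20 and Cdx2, are drawn at their fitted value, which is no bound.

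Immediate-early genes, most of them transcription factors, rose as a group. Of the 30 listed genes 23 rose (76.7%) and 1 fell, against 13.9% of all genes higher, and the list's median change was 1.75, against 0.07 for all genes. Egr1, a zinc finger factor that is a common readout of ERK activity, had intensities of 39568, 38685 and 32488 on MG132+4OHT arrays, against 130.3, 135 and 82.2 on MG132 arrays. The groups lay over 2 orders of magnitude apart on every array, a change of 8.35 ± 0.21 (adjusted p = 6.2e-08). Fos, the partner of JUN proteins in the AP-1 factor, had 2383, 2540 and 2657 with MG132+4OHT and 239, 224 and 231 with MG132, and rose by 3.45 ± 0.20 (adjusted p = 7.2e-06). Both groups of Fos values were tight and did not overlap.

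Other members of the list rose as well. Members of this and the later lists that the rule for named genes does not cover were picked for description after their values were seen. Egr3, a relative of Egr1, had 266, 248 and 263 on MG132+4OHT arrays and was not well above background on any MG132 array (3.39, 2.98 and 2.09), a rise of at least 23.1-fold (adjusted p = 4.1e-06). For such genes the dim probe is set, on each array, to the higher of its own signal and the lowest signal well above background, so the fold is a lower bound. The adjusted p beside a bound, here and below, is that of the fitted change, and the bound itself was not tested. Such genes passed the filter on dim probes only through groups other than the dim one. Fosl2, another AP-1 member, was likewise at least 24.8-fold higher (adjusted p = 6.4e-05). Egr2, a further Egr factor, had 487, 452 and 329.9 with MG132+4OHT and 35.1, 39.8 and 18.0 with MG132, a change of 3.83 ± 0.32 (adjusted p = 4.6e-05). Arc, which is best known as an activity-regulated gene of neurons, rose by 3.83 ± 0.25, and Maff, a small MAF factor, rose by 3.27 ± 0.17. Fosb and Fosl1, both AP-1 members, rose by 2.99 ± 0.27 and 2.72 ± 0.34, and Junb by 2.17 ± 0.15. The change of Myc, the growth-promoting factor, was smaller at 0.88 ± 0.18 (adjusted p = 0.0063), with 988, 973 and 921 on MG132+4OHT arrays and 593, 609.9 and 397 on MG132 arrays.

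Not every immediate-early gene was called. Jun had a change of 0.99 ± 0.45 (adjusted p = 0.13, and 0.020 with the replicate number as a block), and Atf3, a stress-induced AP-1 relative, had 1446, 1372 and 949 with MG132+4OHT and 1188, 1242 and 898 with MG132, where the groups overlapped (change 0.17 ± 0.30, adjusted p = 0.71). Nr4a1, Mcl1, Egr4 and Btg2 were not called either. Srf, the serum response factor that binds many immediate-early promoters, was the only one of the 30 called lower and fell by 0.64 on the log2 scale (adjusted p = 0.00072). Id1, an inhibitor of basic helix-loop-helix factors, rose by 2.04 ± 0.53 (adjusted p = 0.018), and its call ended with slide as a fixed block (adjusted p = 0.082) and without MG132 replicate 3 (adjusted p = 0.052) or MG132+4OHT replicate 3 (adjusted p = 0.055). The counts of members that rose were 19 to 24 when 1 array of the series was left out and 17 with slide as a fixed block.

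**Figure D2:**
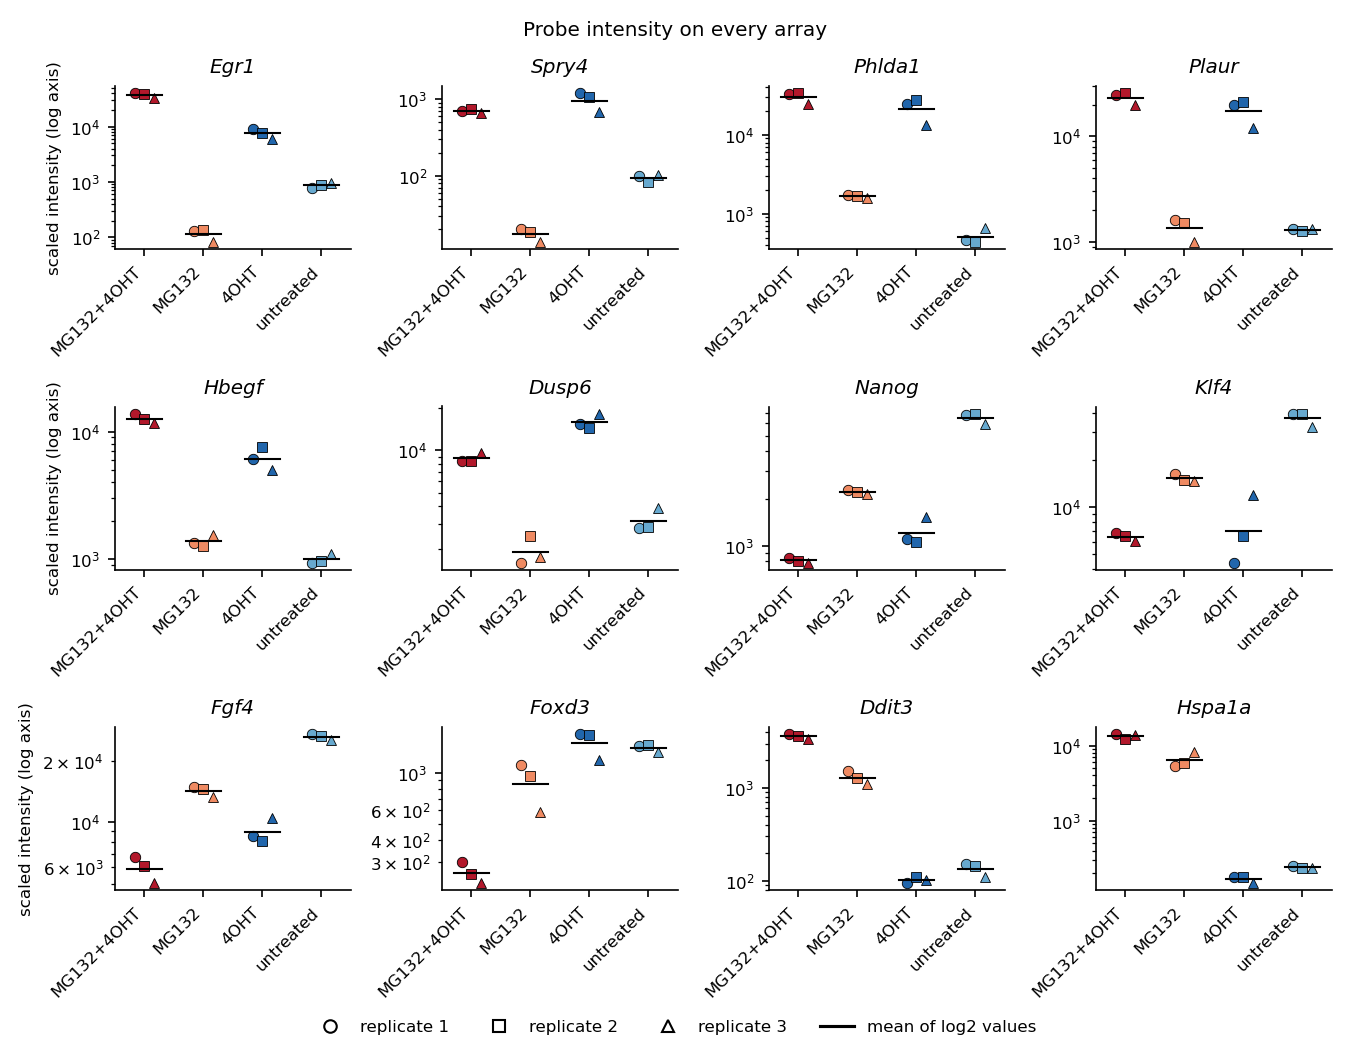
Scaled probe intensity (vertical log axes, a range of its own for each gene) of 12 genes on all 12 arrays, grouped as MG132+4OHT, MG132, 4OHT and untreated; circles, squares and triangles are replicates 1, 2 and 3, and the line is the mean of log2 values. The 12 genes were picked from called genes, so that their MG132+4OHT and MG132 arrays do not overlap is no further support; this held for 50.2% of all genes. Egr1 and Spry4 are lower on MG132 arrays than on untreated arrays.

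Many of the feedback inhibitors that ERK signalling induces against itself rose. Of 28 listed feedback inhibitors and ETS-type targets 15 rose (53.6%, against 13.9% of all genes), 1 fell (against 12.6%) and 12 were not called, with a median change of 0.89. Spry4, a Sprouty protein that dampens receptor tyrosine kinase signalling, had 705, 755 and 669 on MG132+4OHT arrays, against 20.1, 18.7 and 13.7 on MG132 arrays. It rose by 5.36 ± 0.21 (adjusted p = 2.6e-06), and the groups were far apart. Phlda1, a pleckstrin-homology protein induced by growth factor signalling, had 32764, 33483 and 24766 with MG132+4OHT and 1750, 1678 and 1590 with MG132, a rise of 4.17 ± 0.26 (adjusted p = 1.1e-05).

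The dual-specificity phosphatases, which remove the activating phosphates from MAP kinases, differed in size. Dusp6, the phosphatase of cytoplasmic ERK, had 8371, 8375 and 9575 on MG132+4OHT arrays and 1602, 2483 and 1752 on MG132 arrays and rose by 2.20 ± 0.18 (adjusted p = 4.6e-05). Dusp5, the nuclear ERK phosphatase, was not well above background on any MG132 array and was at least 4.79-fold higher (adjusted p = 1.2e-05), and Dusp4 and Dusp1 rose by 3.33 ± 0.24 and 2.67 ± 0.16. Dusp2 rose by 1.29 ± 0.24 (adjusted p = 0.0034, and 0.052 with slide as a fixed block). Dusp7, another ERK phosphatase, fell by 1.02 on the log2 scale (adjusted p = 0.0032, and 0.072 with slide as a fixed block). Of the ETS factors that ERK signalling induces, Etv4 had 9102, 8449 and 9941 with MG132+4OHT and 2031, 1954 and 1646 with MG132 (change 2.29 ± 0.14, adjusted p = 9.9e-06), whereas Etv5 rose by only 0.51 ± 0.09 (adjusted p = 0.0029). Ccnd1, which encodes cyclin D1, had 1110, 1067 and 1272 with MG132+4OHT and 1664, 1640 and 1646 with MG132 and was not called (change -0.52 ± 0.19, adjusted p = 0.065). Ccnd1 was called lower under several alternatives, among them normexp (adjusted p = 0.043), median centring (0.037) and the fit of the 6 compared arrays (0.010), with changes of -0.53, -0.59 and -0.52.

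Ligands of the EGF receptor family were among the rises. Of 21 measured secreted growth factors, from 25 listed, 9 rose (42.9%, against 13.9% of all genes) and 2 fell (9.52%, against 12.6%). The median change was 0.67. Hbegf, heparin-binding EGF-like growth factor, had 13736, 12428 and 11592 on MG132+4OHT arrays and 1329, 1273 and 1536 on MG132 arrays, and rose by 3.19 ± 0.15 (adjusted p = 3.4e-06). Amphiregulin (Areg) had 386, 348 and 204 with MG132+4OHT and 18.6, 16.0 and 22.4 with MG132 (change 4.00 ± 0.53, adjusted p = 0.00062). Both ligands were higher on every MG132+4OHT array. Epiregulin (Ereg) was not well above background on MG132 arrays and was at least 3.47-fold higher (adjusted p = 0.0025, and 0.060 with slide as a fixed block). Fgf4, the ligand that drives ERK in embryonic stem cells, had 6779, 6100 and 5029 on MG132+4OHT arrays, against 14863, 14486 and 13272 on MG132 arrays, and fell by 1.26 on the log2 scale (adjusted p = 0.00017). Gdf15, a stress-induced cytokine of the TGF-beta family, rose by 1.18 ± 0.36 (adjusted p = 0.035), and its call ended with slide as a fixed block (adjusted p = 0.15), with median centring (0.059), without any 1 of the 6 compared arrays (adjusted p = 0.069 to 0.087) and without untreated replicate 1 (0.050).

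Of 18 measured chemokines and NF-kB targets, from 21 listed, 7 rose (38.9%, against 13.9% of all genes) and 2 fell (11.1%, against 12.6%). The median change was 0.56. With slide as a fixed block 4 rose and 0 fell. Without MG132 replicate 1, MG132+4OHT replicate 1 or MG132+4OHT replicate 2, 0 also fell. Ccl20, the chemokine that binds the receptor CCR6, had 4792, 4655 and 3057 on MG132+4OHT arrays, while no MG132 array was well above background (2.96, 7.86 and 4.86). It was at least 364-fold higher (adjusted p = 1.1e-05), the largest bound among genes with a symbol. Plaur, the receptor of the urokinase plasminogen activator, had 24868, 25558 and 19733 with MG132+4OHT and 1607, 1495 and 993 with MG132 and rose by 4.12 ± 0.24 (adjusted p = 7.2e-06). Tnfaip3, which encodes the NF-kB inhibitor A20, had 64.4, 72.3 and 73.7 with MG132+4OHT and 29.3, 19.4 and 27.9 with MG132 (change 1.48 ± 0.19, adjusted p = 0.00051). Nfkbia, which encodes the inhibitor that the proteasome degrades during NF-kB activation, fell by 0.92 on the log2 scale (adjusted p = 0.035), and this call ended with slide as a fixed block (adjusted p = 0.21), without any 1 of the compared arrays except MG132+4OHT replicate 3 (adjusted p = 0.066 to 0.11) and without untreated replicate 1 or 2 (0.051).

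The promoter of Plaur holds a match to the AP-1 motif, the site that FOS and JUN proteins bind. It is shown, with those of Srxn1 and Plet1 further below. Among the genes named by rule and open to this choice, these had the largest called rises with such a match in the 250 bases before the start. Named genes of a chromosome kept out of display were not open to it, so larger rises there were not considered. Each sequence is the 250 bases before the gene's annotated start on the plus strand of GRCm38.p6, read 5′ to 3′, with the AP-1 match in capitals. In Plaur, at chr7:24462233-24462482, the match begins 69 bases before the start.
Plaur: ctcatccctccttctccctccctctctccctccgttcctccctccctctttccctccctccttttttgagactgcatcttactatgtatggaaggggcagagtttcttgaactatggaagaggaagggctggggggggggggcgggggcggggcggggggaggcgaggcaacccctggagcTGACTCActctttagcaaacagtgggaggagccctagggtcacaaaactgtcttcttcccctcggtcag

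Naive pluripotency genes fell more often than they rose. Of 22 measured members 11 fell (50%) and 4 rose, against 12.6% of all genes lower, and the median change was -0.64. These are bulk RNA samples, in which fewer cells of a type and less RNA per cell cannot be told apart. Nanog, a core factor of the naive state, had 840.3, 802 and 785 on MG132+4OHT arrays, against 2265, 2213 and 2130 on MG132 arrays. Each group was tight and they did not overlap, a change of -1.45 ± 0.13 (adjusted p = 8.8e-05). A further Nanog probe with a lower mean signal had a change of -0.06 and was not called, and the mean over both probes changed by -0.75 (adjusted p = 0.026). Klf4, a Kruppel-like factor of the same network, had 6824, 6466 and 6037 with MG132+4OHT and 16163, 14871 and 14533 with MG132 (change -1.24 ± 0.28, adjusted p = 0.010, and 0.11 with slide as a fixed block). Esrrb, an orphan nuclear receptor that can stand in for Nanog, had 15622, 15612 and 16774 with MG132+4OHT and 28514, 28414 and 29202 with MG132 (change -0.84 ± 0.13, adjusted p = 0.0017).

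Spic, an ETS-family factor, had 154, 131 and 185 with MG132+4OHT and 352, 358 and 531 with MG132 (change -1.39 ± 0.19, adjusted p = 0.00067). Fbxo15, a known OCT4 target, fell by 1.24 on the log2 scale. Klf2 fell by 1.30 on the log2 scale (adjusted p = 0.017), a call that ended with slide as a fixed block (adjusted p = 0.088) and without MG132+4OHT replicate 1 (adjusted p = 0.059) or 2 (adjusted p = 0.061). Tfcp2l1, a target of LIF signalling, had a change of -1.30 ± 0.47 and was not called (adjusted p = 0.068); with the replicate number as a block its adjusted p was 0.0016. Manba, which encodes the lysosomal enzyme beta-mannosidase, went the other way, with 4871, 5172 and 6251 on MG132+4OHT arrays and 1219, 1129 and 943 on MG132 arrays (change 2.31 ± 0.18, adjusted p = 3.1e-05). Nr0b1, a nuclear receptor co-repressor of naive cells, rose by 0.77 ± 0.10. Zfp42 (also called Rex1) had a change of -0.05 ± 0.15 and was not called. The count of members that fell was 8 to 12 when 1 array of the series was left out. Fewer fell with slide as a fixed block, where fewer were also called over all genes, and the list's median change there was -0.64. The count that rose was 2 without MG132 replicate 3, MG132+4OHT replicate 1 or MG132+4OHT replicate 2.

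Of 17 measured general pluripotency genes, shared by naive and later states, 3 rose (17.6%, against 13.9% of all genes) and 3 fell (17.6%, against 12.6%), shares near those of all genes. Pou5f1, which encodes OCT4, had 20724, 20973 and 20673 on MG132+4OHT arrays and 22020, 22046 and 21944 on MG132 arrays, and was not called (change -0.08 ± 0.15, adjusted p = 0.72). Foxd3, a forkhead repressor, had 299, 254 and 224 with MG132+4OHT and 1105, 955 and 591 with MG132, and fell by 1.73 on the log2 scale (adjusted p = 0.00057), with MG132 replicate 3 the lowest of its group. Dppa4, a chromatin-associated protein of pluripotent cells, rose by 0.92 ± 0.10. Sox2, the partner of OCT4, had 4561, 4362 and 4512 with MG132+4OHT and 6232, 5592 and 5172 with MG132, a change of -0.34 ± 0.10 (adjusted p = 0.028). That call ended with slide as a fixed block (adjusted p = 0.35), without a filter on dim probes (adjusted p = 0.089), and without any 1 of the 6 compared arrays except MG132 replicate 3 (adjusted p = 0.063 to 0.10). Of 18 formative and primed epiblast genes 4 rose (22.2%, against 13.9% of all genes) and 4 fell (22.2%, against 12.6%). The rises numbered 7 with the replicate number as a block. The falls numbered 2 without MG132 replicate 1 and with slide as a fixed block. Pou3f1 (OCT6), a POU factor of the primed epiblast, had 2495, 2288 and 1410 with MG132+4OHT and 561, 518 and 312 with MG132 (change 2.16 ± 0.29, adjusted p = 0.00070). Otx2, which marks the exit from the naive state, fell by 0.76 on the log2 scale (adjusted p = 0.0065).

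Several trophoblast genes rose. Of 16 measured trophoblast genes, from 17 listed, 7 rose (43.8%, against 13.9% of all genes) and 1 fell (6.25%, against 12.6%). The median change was 0.63. With slide as a fixed block 4 rose. Cdx2, a homeobox factor that specifies trophectoderm, had 309.7, 336 and 213 on MG132+4OHT arrays and was not well above background on MG132 arrays (6.0, 4.22 and 6.64), a rise of at least 25-fold (adjusted p = 0.00087). Tead4, its upstream activator in the embryo, had 2490, 2501 and 1828 with MG132+4OHT and 427, 382 and 435 with MG132 (change 2.44 ± 0.20, adjusted p = 4.1e-05). Eomes, a T-box factor of trophoblast and mesendoderm, had 361, 333 and 303 with MG132+4OHT and 94.2, 75.6 and 77.3 with MG132 (change 2.02 ± 0.20, adjusted p = 0.00014). For none of these did the groups overlap. Ascl2, a helix-loop-helix factor of the placenta, fell by 1.62 on the log2 scale (adjusted p = 0.0022). Krt18, a simple-epithelium keratin, rose by 1.65 ± 0.37 (adjusted p = 0.0092, and 0.051 with slide as a fixed block). Gata3, Krt8, Krt7 and Tfap2c, all markers of trophoblast, were not called.

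Plet1, a surface protein of placental progenitors, had 5320, 5058 and 4154 with MG132+4OHT and 1176, 1079 and 942 with MG132, and rose by 2.18 ± 0.14 (adjusted p = 1.3e-05). Its promoter, at chr9:50494275-50494524, holds a match to the AP-1 pattern searched, TGANTCA, that begins 144 bases before the start. The pattern allows any middle base, and the match reads TGATTCA, with a T where those of Plaur and Srxn1 have C or G.
Plet1: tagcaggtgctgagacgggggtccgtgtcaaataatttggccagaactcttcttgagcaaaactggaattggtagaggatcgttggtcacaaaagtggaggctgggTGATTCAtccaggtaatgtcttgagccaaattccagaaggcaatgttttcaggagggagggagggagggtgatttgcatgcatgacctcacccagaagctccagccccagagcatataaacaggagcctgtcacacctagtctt

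Of 16 mesendoderm and primitive streak genes 4 rose (25%, against 13.9% of all genes) and 5 fell (31.2%, against 12.6%). The falls numbered 3 without MG132 replicate 1 and 2 with slide as a fixed block. Evx1, a homeobox factor of the posterior streak, had 531, 538 and 457 with MG132+4OHT and 141, 118 and 76.2 with MG132 (change 2.23 ± 0.24, adjusted p = 0.00020). T (brachyury), the classical streak marker, had 21.4, 22.4 and 40.2 with MG132+4OHT and 20.7, 20.3 and 24.3 with MG132, and was not called (change 0.31 ± 0.28, adjusted p = 0.44). Gsc, a homeobox factor of the organiser that was well above background on 2 of 3 MG132+4OHT arrays, fell by 1.69 on the log2 scale (adjusted p = 0.0053). Nodal, the TGF-beta ligand that induces mesendoderm, fell by 0.89 on the log2 scale (adjusted p = 0.015), a call that ended with slide as a fixed block (adjusted p = 0.17) and without MG132 replicate 1 (adjusted p = 0.052). In the primitive endoderm list Gata6 had 103, 92.2 and 174 with MG132+4OHT and 60.4, 59.6 and 109.8 with MG132, and neither it (change 0.69 ± 0.49) nor Sox17 (change 0.48 ± 0.51) was called; with the replicate number as a block Gata6 was. Of the 10 fibroblast or feeder cell genes measured, from 13 listed, 4 rose (40%, against 13.9% of all genes). With slide as a fixed block 2 rose. S100a4, a calcium-binding protein of motile cells, had 464, 444 and 342 with MG132+4OHT and 32.1, 35.8 and 60.1 with MG132 (change 3.33 ± 0.23, adjusted p = 1.9e-05), and Twist1, a helix-loop-helix factor of mesenchyme, rose by 2.53 ± 0.31. Vimentin (Vim), the intermediate filament of mesenchymal cells, rose by 1.37 ± 0.25 (adjusted p = 0.0032, and 0.082 with slide as a fixed block).

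Stress response genes were examined because MG132 is known to evoke them. NRF2, the antioxidant factor, is itself turned over by the proteasome. Of 21 NRF2 and metal response genes 13 rose (61.9%, against 13.9% of all genes), with a median change of 0.46. None fell by the limma test (0 also at an unadjusted p below 0.05), against 12.6% of all genes. With slide as a fixed block 7 rose. Slc7a11, the cystine transporter, had 314, 317 and 122 on MG132+4OHT arrays and 48.8, 54.7 and 32.8 on MG132 arrays (change 2.37 ± 0.42, adjusted p = 0.0031). Srxn1, which repairs oxidised peroxiredoxins, had 25398, 25263 and 11961 with MG132+4OHT and 5347, 4619 and 2925 with MG132 (change 2.24 ± 0.36, adjusted p = 0.0018). Replicate 3 was the lowest array of each group in both genes, and the groups did not overlap. Sqstm1, which encodes the autophagy receptor p62, had 51343, 48852 and 44580 with MG132+4OHT and 18925, 17170 and 15483 with MG132 (change 1.49 ± 0.15, adjusted p = 0.00013), and Hmox1, heme oxygenase, rose by 1.48 ± 0.12. Nqo1, a quinone reductase often used as an NRF2 readout, was not called (change 0.37 ± 0.37, adjusted p = 0.49, and 0.024 with the replicate number as a block), nor were the metallothioneins Mt1 and Mt2.

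The promoter of Srxn1, at chr2:152105274-152105523, holds 2 AP-1 matches, the first of which begins 102 bases before the start. The antioxidant response element that NRF2 binds is known to contain an AP-1-like core.
Srxn1: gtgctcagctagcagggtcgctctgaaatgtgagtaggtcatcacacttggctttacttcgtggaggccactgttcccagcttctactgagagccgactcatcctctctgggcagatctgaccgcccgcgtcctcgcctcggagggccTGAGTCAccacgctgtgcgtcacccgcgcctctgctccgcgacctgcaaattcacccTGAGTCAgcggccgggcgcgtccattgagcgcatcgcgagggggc

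Of 24 targets of ATF4, the factor of the integrated stress response, 7 rose (29.2%, against 13.9% of all genes), with a median change of 0.41. None fell by the limma test (0 also at an unadjusted p below 0.05), against 12.6% of all genes. The count that rose was 13 with the replicate number as a block, and 4 without MG132 replicate 3, MG132+4OHT replicate 1 or MG132+4OHT replicate 2. Ddit3, which encodes the pro-apoptotic factor CHOP, had 3772, 3656 and 3344 on MG132+4OHT arrays and 1507, 1294 and 1111 on MG132 arrays (change 1.47 ± 0.14, adjusted p = 0.00013). Ppp1r15a (GADD34), the phosphatase subunit that restores translation, had 17370, 16059 and 11802 with MG132+4OHT and 6882, 6723 and 5148 with MG132 (change 1.26 ± 0.16, adjusted p = 0.00051). Both were higher on every MG132+4OHT array. The amino acid enzymes of the list, among them Asns (change 0.19) and Psat1 (change 0.33), were not called, though Psat1 was with the replicate number as a block (adjusted p = 0.045).

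Among 30 cytosolic chaperones of the heat shock response, 11 were called higher (36.7%, against 13.9% of all genes) and 4 lower (13.3%, against 12.6%). The median change was 0.19. The rises numbered 7 without MG132 replicate 1 or MG132 replicate 2, 6 without MG132+4OHT replicate 1, and 4 with slide as a fixed block. The falls numbered 2 without MG132+4OHT replicate 1 or 2 and with slide as a fixed block. For Hspa1a, whose values are given above, the change was 1.08 ± 0.16 (adjusted p = 0.00096), with all MG132+4OHT arrays above the MG132 arrays. Dnajb1, its co-chaperone, had 37043, 36270 and 38316 with MG132+4OHT and 19498, 18452 and 18654 with MG132 (change 0.98 ± 0.08, adjusted p = 3.5e-05). Hspb8, a small heat shock protein, fell by 1.00 on the log2 scale (adjusted p = 0.00055). The constitutive chaperones Hsp90aa1, Hsp90ab1 and Hspd1 were not called.

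Of 24 measured targets of p53, another protein that the proteasome turns over, 5 rose (20.8%, against 13.9% of all genes) and 5 fell (20.8%, against 12.6%), and the count that fell was 1 to 3 when any of the 6 compared arrays except MG132+4OHT replicate 3 was left out. Pmaip1, which encodes the BH3-only protein NOXA, had 7105, 6450 and 8300 with MG132+4OHT and 1733, 1609 and 1809 with MG132 (change 2.08 ± 0.15, adjusted p = 2.3e-05). Cdkn1a, which encodes the cell cycle inhibitor p21, had 3691, 3553 and 4063 with MG132+4OHT and 1909, 1970 and 2093 with MG132 (change 0.92 ± 0.14, adjusted p = 0.0011). The groups did not overlap in either, and Gadd45a, a growth arrest gene, rose by 1.60 ± 0.17. Trp53 itself was not called (change -0.27 ± 0.14, adjusted p = 0.17). In the Bcl2 family 4 of 15 rose (26.7%, against 13.9% of all genes) and 3 fell (20%, against 12.6%). With slide as a fixed block 1 fell. Bcl2l11, which encodes the BH3-only protein BIM that ERK signalling is known to regulate, rose by 1.01 ± 0.21 (adjusted p = 0.0066), and Bmf, another BH3-only gene, fell by 0.93 on the log2 scale (adjusted p = 0.013, 0.24 with slide as a fixed block and 0.052 without MG132 replicate 1). A further Bmf probe had a change of 0.43 and was not called, and the mean over both probes changed by -0.25 (adjusted p = 0.30).

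Genes of cholesterol synthesis and uptake rose together. Of 24 measured 15 rose (62.5%, against 13.9% of all genes) and 1 fell (4.17%, against 12.6%), with a median change of 0.80. The count that rose was 12 to 16 when 1 array of the series was left out and 9 with slide as a fixed block. Cyp51, lanosterol demethylase, had 3306, 3330 and 3777 with MG132+4OHT and 1293, 1240 and 1652 with MG132 (change 1.32 ± 0.19, adjusted p = 0.00083). Every MG132+4OHT array was above every MG132 array for Cyp51. Insig1, a sterol-sensing regulator that the pathway's own factor SREBP2 induces, rose by 1.32 ± 0.25 (adjusted p = 0.0041, and 0.087 with slide as a fixed block), and Srebf2, which encodes SREBP2, rose by 0.79 ± 0.14. Tm7sf2, a sterol reductase, was the member that fell (change -0.60 ± 0.16, adjusted p = 0.022, 0.065 with slide as a fixed block, and 0.059 to 0.081 without MG132 replicate 2 or 3 or MG132+4OHT replicate 1 or 2).

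Genes of other signalling pathways were called in smaller numbers, given beside 13.9% of all genes higher and 12.6% lower. Called higher and lower were 33.3% and 5.56% of Wnt targets and 18.8% and 6.25% of BMP and SMAD targets. For LIF and STAT3 targets both shares were 27.8%, and for Notch targets they were 16.7% and 33.3%. Of 18 Wnt targets 6 rose and 1 fell, among them Ccnd2, which encodes cyclin D2 (change 1.44 ± 0.26, adjusted p = 0.0033), and Lgr5, the R-spondin receptor, at least 1.66-fold higher (adjusted p = 0.0015); Axin2, the most general Wnt readout, was not called. Tnfrsf19, the Wnt target that fell, is uncertain, since another of its probes moved the other way. Of 16 BMP and SMAD targets 3 rose and 1 fell. Id3, an inhibitor of helix-loop-helix factors, had 1900, 1740 and 2255 with MG132+4OHT and 751, 777 and 319 with MG132 (change 1.77 ± 0.29, adjusted p = 0.0020), and Msx1, a homeobox factor, rose by 1.56 ± 0.31. Of 18 LIF and STAT3 targets 5 rose and 5 fell; Pim1, a kinase gene, had 6077, 6268 and 5750 with MG132+4OHT and 1888, 1816 and 1785 with MG132 (change 1.72 ± 0.11, adjusted p = 1.3e-05), while Socs3, the feedback inhibitor of STAT3, was not called (change -0.29 ± 0.14). The LIF list's rises numbered 3 without MG132 replicate 3, MG132+4OHT replicate 1 or MG132+4OHT replicate 2. Its falls numbered 9 with the replicate number as a block, 0 with slide as a fixed block, and 2 or 3 without any 1 of the compared arrays other than MG132+4OHT replicate 3. Of 12 Notch targets 4 fell and 2 rose; Hes1, the general Notch effector, fell by 1.17 on the log2 scale (adjusted p = 0.0033).

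For the remaining lists the counts are given beside 13.9% of all genes higher and 12.6% lower, with no direction for a list as a whole. Of 41 proteasome subunits and assembly factors 5 rose (12.2%) and 3 fell. The largest changes were in Pomp, the proteasome maturation protein (change 0.84 ± 0.12, adjusted p = 0.00080), Psmg2, an assembly chaperone (change -0.70 ± 0.10), and Psma7, a core subunit (change -0.65 ± 0.13). Of 31 Mediator subunits 4 rose and 2 fell. Of 20 mitotic genes 1 fell, Bub1b, a spindle checkpoint kinase (change -0.54 ± 0.08, adjusted p = 0.0015), and of 20 G1 cyclins and regulators 3 rose. Of 22 Myc network and ribosome biogenesis genes 7 rose and 3 fell, of 23 glycolysis and hypoxia genes 5 rose and 3 fell, and of 19 endoplasmic reticulum chaperones 3 rose and 1 fell. Of 19 SRF and YAP cytoskeletal targets 6 rose and 4 fell, of 15 neural progenitor genes 3 rose and 4 fell, of 19 primitive endoderm genes 4 rose (21.1%) and of 14 retinoic acid genes 3 rose (21.4%) and 3 fell (21.4%). Of the 9 genes of the 2-cell-like state 1 fell, and the list's median change of 0.85 rested on members that were not called. With the replicate number as a block 5 neural and 7 primitive endoderm genes rose, 3 of the 2-cell-like list rose and 3 of the G1 list fell. In the proteasome, Mediator, Myc, glycolysis, chaperone, cytoskeletal, neural, primitive endoderm, retinoic acid and Notch lists at least 1 of these counts moved by more than 1.5 times with slide as a fixed block, and again without at least 1 of the compared arrays.

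**Figure D3:**
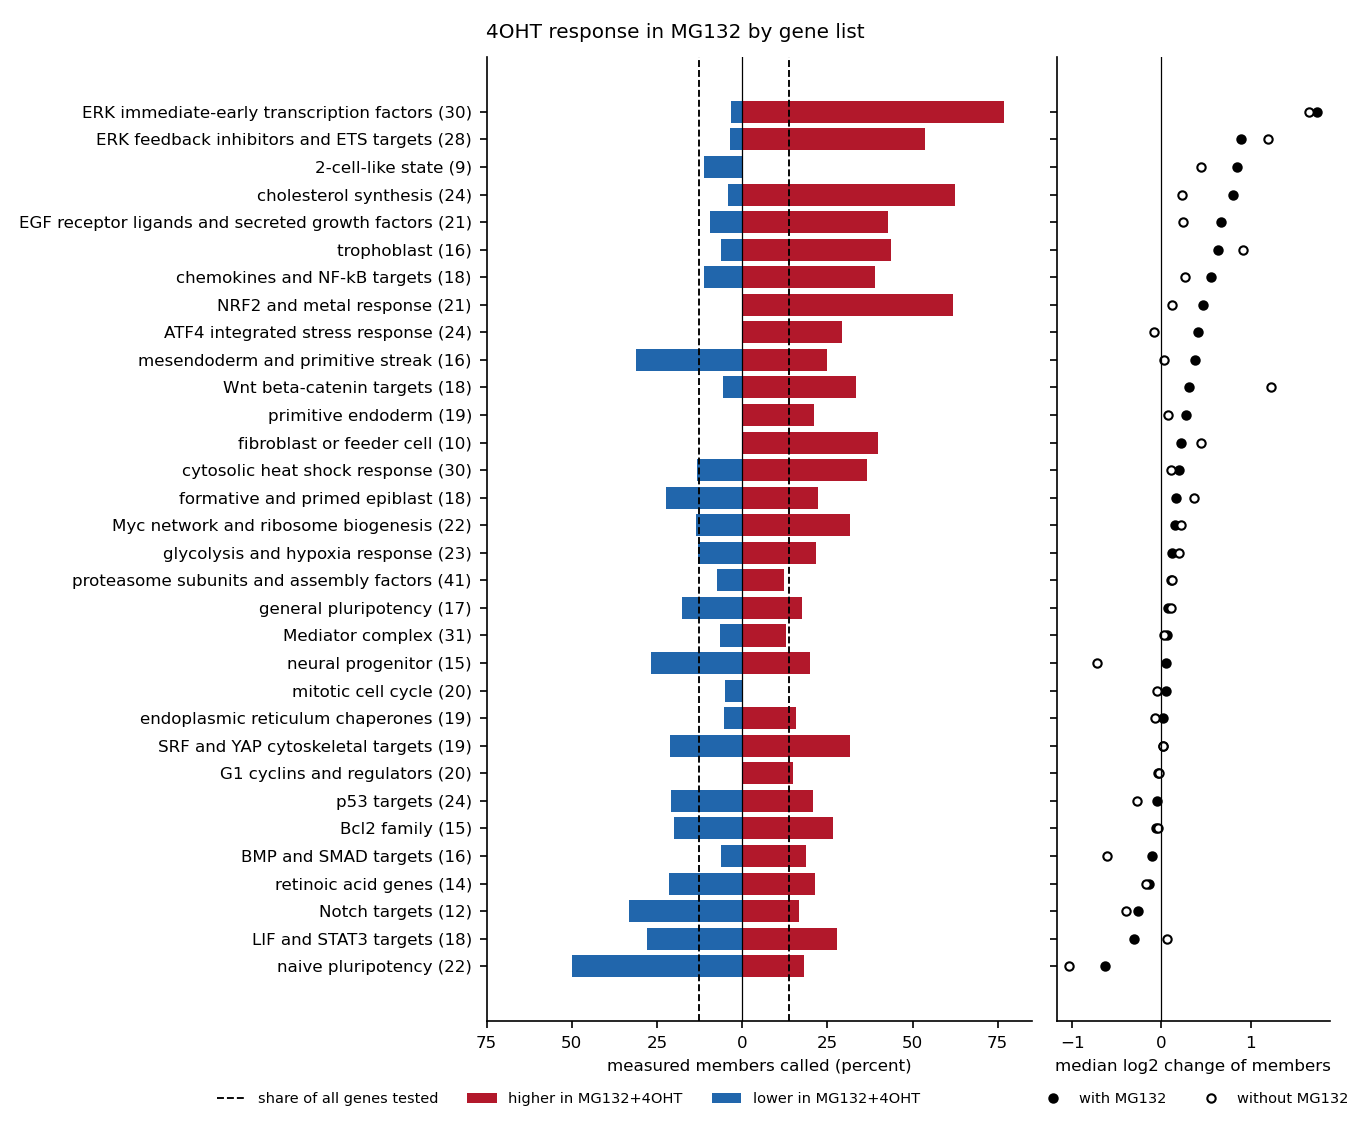
Left, the percent of each list's measured members (their number in brackets) called higher (red, to the right) and lower (blue, to the left) with MG132+4OHT; dashed lines mark the shares over all genes tested, 13.9% higher and 12.6% lower. Right, the median log2 change of each list with MG132 (filled circles) and without MG132 (open circles); the immediate-early list has the highest median, 1.75, and the naive pluripotency list the lowest, -0.64, and medians near 0 turn sign with the scaling of the arrays in several lists.

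The largest rises with both groups measured, after Egr1, were Krt23, Ankrd66, Rab7b, Spry4, Nefm, Col6a5, Afp, Nppb and Cyp2b10. Nefm, a neurofilament subunit, had 3330, 3134 and 2619 on MG132+4OHT arrays and 99.2, 78.1 and 62.8 on MG132 arrays (change 5.26 ± 0.25, adjusted p = 3.4e-06). Nppb, which encodes B-type natriuretic peptide, had 11036, 10263 and 3779 with MG132+4OHT and 239, 207 and 259 with MG132 (change 5.01 ± 0.54, adjusted p = 0.00020). Afp, alpha-fetoprotein of the yolk sac and fetal liver, had 819, 754 and 591 with MG132+4OHT and 19.4, 17.9 and 24.9 with MG132 (change 5.12 ± 0.37, adjusted p = 2.4e-05). All 3 were separated between the groups by more than an order of magnitude. Krt23, a keratin, was above background on 1 of 3 MG132 arrays and rose by 5.69 ± 0.33, as Rab7b, a RAB GTPase, did by 5.38 ± 0.69 and Col6a5, a collagen VI chain, by 5.25 ± 0.56. With slide as a fixed block Rab7b rose by 3.74 and Col6a5 by 4.03. Cyp2b10, a cytochrome P450 above background on 1 of 3 MG132 arrays, rose by 4.64 ± 0.83 (adjusted p = 0.0031, and 0.081 with slide as a fixed block). After normexp background correction the rise was 2.57 for Krt23, 2.12 for Rab7b, 2.48 for Col6a5 and 2.16 for Cyp2b10. Of 194 called genes that were not well above background on any MG132 array, the largest bounds were those of Ccl20, Krt76 (at least 32.5-fold), Cdx2 and Fosl2. Aldh1a3, an enzyme of retinoic acid synthesis above background on 2 of 3 MG132 arrays, had 224, 232 and 168 with MG132+4OHT and 13.3, 16.3 and 17.3 with MG132 (change 3.73 ± 0.35, adjusted p = 0.00010).

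The largest falls were smaller than the largest rises. Chl1, a neural cell adhesion molecule, had 12.7, 14.8 and 14.3 on MG132+4OHT arrays and 111, 94.3 and 103 on MG132 arrays (change -2.88 ± 0.30, adjusted p = 0.00016). Cited4, a transcriptional co-activator, had 59.4, 68.0 and 71.6 with MG132+4OHT and 390.2, 436 and 487 with MG132 (change -2.72 ± 0.23, adjusted p = 5.0e-05). Foxj1, the forkhead factor of motile cilia, had 19.5, 15.8 and 20.6 with MG132+4OHT and 112, 109 and 91.0 with MG132 (change -2.49 ± 0.33, adjusted p = 0.00058). The rule for the largest falls admitted only genes whose groups did not overlap, which held for 50.2% of all genes. Rasgef1a, Prr15l, Lrriq4, Myot and Plppr3 fell by 2.32 to 2.63 on the log2 scale. Lrriq4, Myot, Samd12 and Mob3b were well above background on 1 of 3 MG132+4OHT arrays. Samd12 fell by 2.91 on the log2 scale (adjusted p = 0.0025, and 0.067 with slide as a fixed block), and Mob3b fell by 2.31 (adjusted p = 0.020, 0.35 with slide as a fixed block and 0.072 without MG132+4OHT replicate 3); after normexp the change of Mob3b was -0.39 (adjusted p = 0.15). Of 140 called genes that were not well above background on any MG132+4OHT array, the largest bounds were those of Hoxb13, a posterior homeobox gene (at least 4.27-fold lower), Scube3 (4.04-fold), Stxbp6 (3.94-fold) and Mpig6b (3.77-fold).

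Promoter motifs were counted over the 12645 tested genes with a RefSeq promoter, from 250 bases before to 50 after the start on GRCm38.p6, on both strands. The motifs were the AP-1 site TGANTCA, the cyclic AMP response element TGACGTCA, the ETS site CCGGAAG, the EGR site GCGTGGGCG and the CArG box of serum response factor. The N in the AP-1 pattern stands for any base, so its shares include matches with A or T there. The AP-1 and cyclic AMP patterns differ by 1 base of spacing, so neither contains the other. An AP-1 match was present in 6.66% of all promoters, in 9.18% of the 1852 called higher, in 14.7% of the 558 called higher by at least 2-fold and in 17.2% of the 174 called higher by at least 4-fold. Among the 2167 called lower the share was 5.31%. An ETS match was present in 16.9% of all promoters, in 7.35% of those called higher by at least 2-fold, in 4.02% of those called higher by at least 4-fold and in 9.98% of the 481 called lower by at least 2-fold. The CArG box was found in 1.69% of all promoters and 3.45% of those called higher by at least 4-fold, the cyclic AMP element in 3.31% and 4.02%, and the EGR site in 1.23% and 0.575%. In the immediate-early list, with 21 promoters, 1 held an AP-1 match (Csrnp1) and 3 a CArG box (Egr2, Srf and Zfp36), while in the NRF2 list 5 of 18 held an AP-1 match (Me1, Mt2, Osgin1, Prdx1 and Srxn1). A match is a description of the letters in this window and no evidence of binding.

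To show where the response with MG132 differed from the response without it, the change of MG132+4OHT over MG132 was tested against the change of 4OHT over untreated. These share no arrays. As stated at the start, 4OHT and culture time cannot be told apart in the 4OHT and untreated pair. A called difference therefore cannot be assigned to MG132 alone. Without MG132 3731 genes (13.9%) were higher and 3935 genes (14.7%) were lower with 4OHT. The difference itself was called in 1760 genes (6.56%), with the change above that without MG132 in 790 genes (2.94%) and below it in 970 genes (3.61%). Centring on the array median turned this split to 905 above and 639 below. Of the genes called higher with MG132 51.1% were also called higher without it, which is 51% of those called higher without it. Of those called lower with MG132 57.6% were also called lower without it, which is 49.5% of those called lower without it. The SD of the change over all genes was 0.64 with MG132 and 0.81 without. The difference was called in 2566 genes with the replicate number as a block and in 804 with slide as a fixed block.

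Egr1 showed the largest called difference upward after Lefty1 among the genes named by rule. Its intensity without MG132 was 9150, 7756 and 5910 on 4OHT arrays and 791, 886 and 968 on untreated arrays, a change of 3.09 ± 0.21, so the change with MG132 was larger by 5.25 ± 0.30 (adjusted p = 3.8e-05). The MG132+4OHT arrays lay above the 4OHT arrays, and the MG132 arrays lay below the untreated arrays. Spry4 had 1198, 1063 and 681 with 4OHT and 101, 83.0 and 103 untreated, and its change with MG132 was larger by 2.03 ± 0.30 (adjusted p = 0.0039), while its MG132+4OHT and 4OHT arrays overlapped. Fos, Fosb, Egr2 and Maff likewise changed by more with MG132, by 1.43, 2.30, 2.22 and 1.27, where slide as a fixed block ended the calls of Fos and Fosb (adjusted p = 0.075 and 0.051). After normexp background correction the difference of Spry4 was 0.41 and was not called (adjusted p = 0.29). In Fosl1, Ier5, Dusp2 and Myc the change with MG132 was smaller. Fosl1 had 1052, 1004 and 370.2 with 4OHT and 29.2, 20.9 and 18.9 untreated, beside 3152, 3097 and 2730 with MG132+4OHT and 491, 446 and 428 with MG132, a difference of -2.30 ± 0.49 (adjusted p = 0.020). The difference of Fosl1 missed the threshold with slide as a fixed block (adjusted p = 0.11), after normexp (-0.75, adjusted p = 0.27), and without untreated replicate 2, MG132 replicate 1, MG132 replicate 2 or MG132+4OHT replicate 2 (adjusted p = 0.051 to 0.056). Ier5, an immediate-early regulator, and Dusp2 differed by -2.69 and -2.49, and Myc by -1.15. The Myc difference missed the threshold with slide as a fixed block (adjusted p = 0.15) and without any 1 array except untreated replicate 3, 4OHT replicate 1, 4OHT replicate 3 or MG132 replicate 3 (adjusted p up to 0.072). In the immediate-early list 5 of 30 genes were called above and 5 below, beside 2.94% and 3.61% of all genes.

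Pluripotency genes also split. Nanog fell by less with MG132, with 1115, 1055 and 1531 on 4OHT arrays and 6763, 6901 and 5997 on untreated arrays, a difference of 0.98 ± 0.19 (adjusted p = 0.013). That difference missed the threshold with slide as a fixed block (adjusted p = 0.059) and with the mean over both probes (difference 0.20, adjusted p = 0.76). The MG132 arrays themselves were below every untreated array. Spic likewise fell by less, by 2.15. Foxd3 had 1679, 1656 and 1180 with 4OHT and 1444, 1460 and 1318 untreated, where it was not called (change 0.08 ± 0.23), and the difference was -1.81 ± 0.32 (adjusted p = 0.0095). Gbx2, a homeobox factor of naive cells, had 118, 87.4 and 112 with MG132+4OHT and 168, 162 and 159.7 with MG132, whereas without MG132 it had 3262, 3033 and 3602 on 4OHT arrays and 531, 522 and 617 on untreated arrays (change 2.57 ± 0.13). Its difference was -3.21 ± 0.18 (adjusted p = 3.8e-05), and its call with MG132 (adjusted p = 0.0051) ended with slide as a fixed block (adjusted p = 0.071).

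The ATF4 and heat shock genes called in the difference were all above the change without MG132, 3 of 24 and 5 of 30. Of all genes 2.94% were called above it and 3.61% below, and no list as a whole was tested. Ddit3 had 94.3, 109 and 102 with 4OHT and 150.1, 143 and 110.5 untreated, below every array with MG132, and changed by 1.86 ± 0.20 more with MG132 (adjusted p = 0.0010). Ppp1r15a and the leucine zipper factor Cebpb differed by 1.40 and 1.86 (for Cebpb not called without most single arrays, with an adjusted p of up to 0.089), and Hspa1a and Dnajb1 by 1.59 and 0.98. Cdkn1a had 564, 376 and 437 with 4OHT and 1030, 971 and 1020 untreated, a change of -1.15 ± 0.14 that ran against its rise with MG132, and differed by 2.07 ± 0.19 (adjusted p = 0.00042); with the mean over its probes the difference was 1.55 and was not called (adjusted p = 0.078).

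Several genes with large differences were not called with MG132. Lefty1, a Nodal antagonist, had 152, 196 and 116 on MG132+4OHT arrays and 198, 216 and 126 on MG132 arrays, against 24.1, 23.6 and 119 on 4OHT arrays and 2703, 3158 and 2548 on untreated arrays. It was not called with MG132 (change -0.21 ± 0.54) and differed by 5.88 ± 0.76 (adjusted p = 0.0024). Gsx1, a neural homeobox gene, had 111, 109.8 and 113 with MG132+4OHT and 55.4, 77.5 and 88.3 with MG132, against 533, 721 and 235 with 4OHT and 12.9, 13.4 and 8.71 untreated, and differed by -4.67 ± 0.51 (adjusted p = 0.00096). Edn2, an endothelin, differed by -4.21, and Slco2b1, an organic anion transporter, by -4.69; neither was called with MG132. Slc35f1 differed by -5.43 although it rose with MG132 by 1.72 ± 0.26 (adjusted p = 0.0014). No untreated array was well above background for Slc35f1 or Slco2b1, so their differences are fitted values and not bounds. The scatter of both responses shows these genes off the diagonal.

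**Figure D4:**
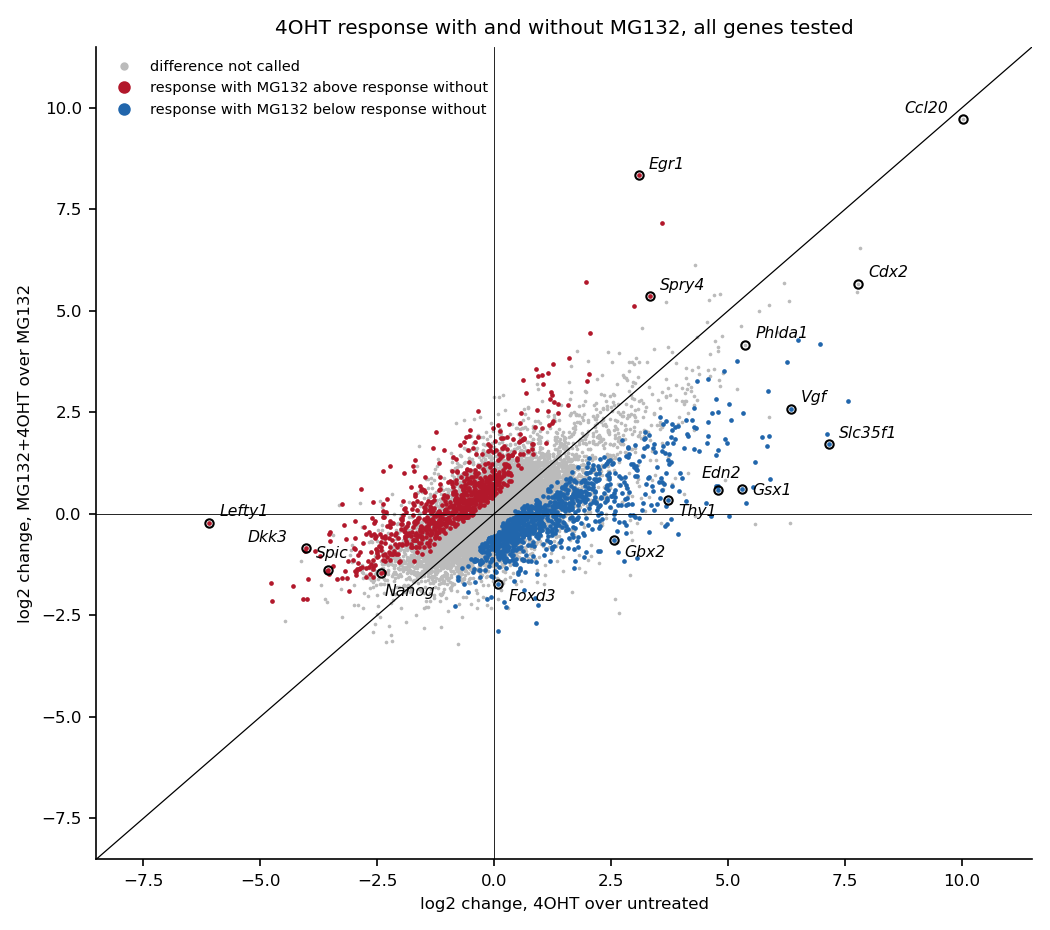
Each point is a gene tested, with its log2 change of MG132+4OHT over MG132 on the vertical axis and of 4OHT over untreated on the horizontal axis; the diagonal marks equal changes. The 790 red genes had a called difference upward and the 970 blue genes downward, with Egr1 and Spry4 above the diagonal, Ccl20 near it, and Lefty1 far left at little change with MG132.

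Fewer calls were made within slide 2. Of the 113 named genes called, 81 were also called on slide 2 alone, 89 with slide as a fixed block, 112 with the replicate number as a block and 98 without each array of the series in turn. Of all 7108 called genes 1829 were also called on slide 2 alone and 2823 with slide as a fixed block. Egr1 changed by 8.80 on slide 2 alone, Spry4 by 5.69, Hbegf by 3.03, Nanog by -1.40 and Foxd3 by -1.20, all called there. Srxn1, Slc7a11, Fgf4 and Hspa1a were not called on slide 2 alone, with changes of 2.75, 2.81, -1.16 and 0.70.

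**Figure D5:**
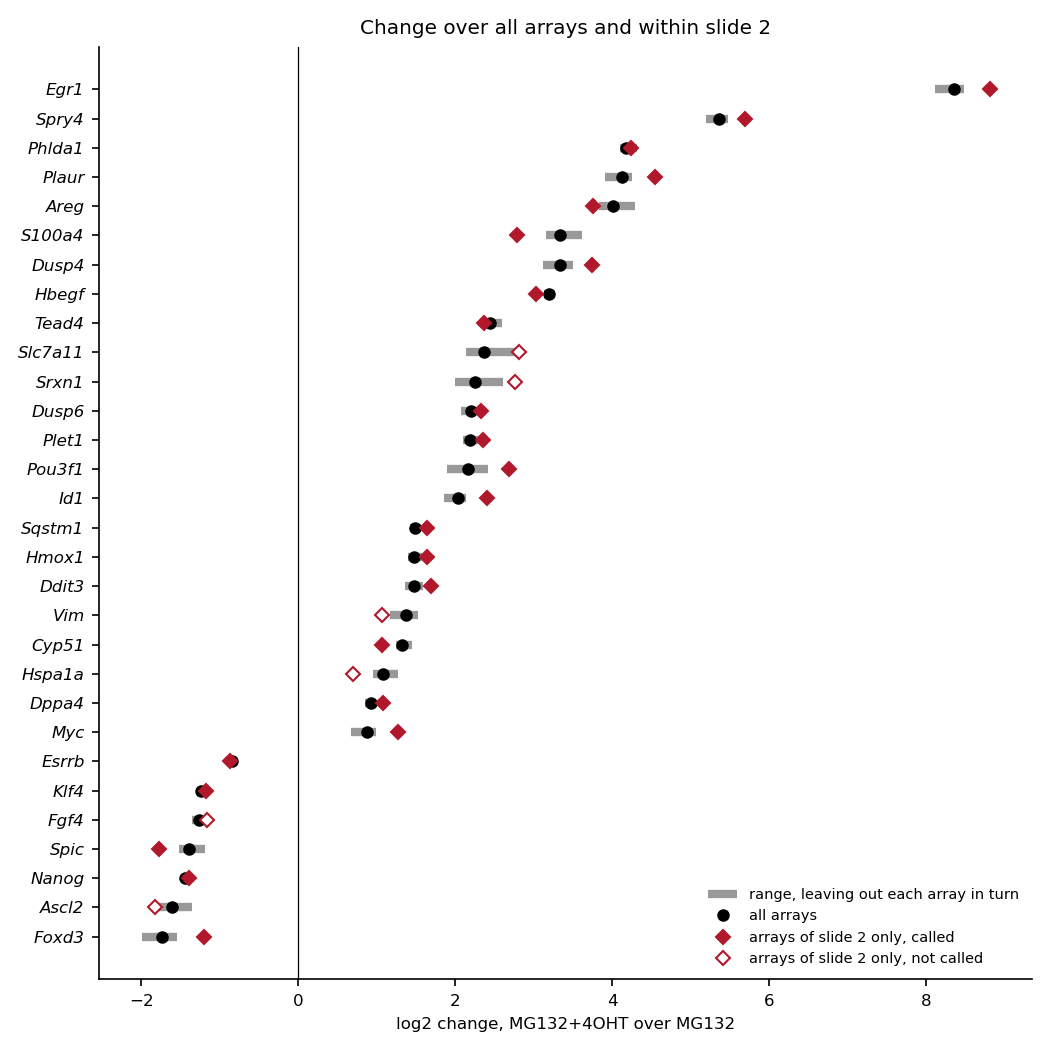
Log2 change of MG132+4OHT over MG132 for 30 genes (horizontal axis): black circles use all arrays, grey bars span the changes when each array was left out in turn, and diamonds use slide 2 alone (filled where called, open where not called). Egr1 lies furthest right in both and Foxd3 furthest left over all arrays; the diamonds of Slc7a11, Srxn1, Vim, Hspa1a, Fgf4 and Ascl2 are open.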

How the data were processed

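RNA of mouse embryonic stem cells was measured on 12 one-colour (Cy3) Agilent arrays, 3 biological replicates per group. The authors deposited unscaled scanner files, and per the file headers Agilent Feature Extraction 11.0.1.1 made their processed intensity by background subtraction and detrending. The deposited files also mark each spot as well above background or not. The series-wide table the authors deposited holds the same intensity (largest difference 0). The array design was drawn on mm9, per the file headers.

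Here, 3671 of 62976 spots were left out as controls and flagged outlier spots were set aside, which left 112 tested genes with a missing value. Log2 intensity was reduced by each array's 75th percentile over spots that are not controls, and spots of a probe were averaged. The 34332 probes kept were marked well above background in every array of 1 or more of the 4 groups. A gene was taken from its probe with the highest mean, and 35 genes had probes called in opposite directions. Transcript accessions gave a symbol for 58.3% of 56605 probes through RefSeq genes of GRCm38.p6, and accessions without one were kept under their own name.

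One limma 3.58.1 model (R 4.3.3) over all 12 arrays, with a coefficient per group, gave 3 contrasts, each adjusted by Benjamini-Hochberg over 26841 genes with a threshold of 0.05. Standard errors follow ±. The fit was tested on simulated data. Tables, promoter searches and plots were made with Python 3.11.15. With 3 arrays against 3 an exact permutation test cannot go below 0.1, so single-gene statements rest on limma's shared variance. Sensitivity to a difference is limited by the number of arrays.

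The genes named were the 10 largest rises and falls whose groups did not overlap, the 4 largest bounds each way, up to 3 called members per list, a fixed set of 22 genes, and the 6 largest differences each way. The comparison, the 32 lists and this rule were chosen with earlier results of these data known. A few genes that the rule named are not reported here.

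Same-numbered MG132+4OHT and MG132 arrays deviated together from their group means (r = 0.156, 0.144 and 0.407 for replicates 1, 2 and 3), so the numbers were taken to pair these samples, although replicates 1 and 2 correlated as well across numbers. The pairing comes from the labels' replicate numbers. Unless stated otherwise, the changes, standard errors and calls come from the fit without this pairing, which called 7108 genes. The fit with the replicate number as a block is an alternative and called 8636. Others were normexp background correction (offset 50, on median signals, the form the deposited files hold), quantile normalization, median centring, no filter or a stricter one, the mean over probes, array weights, a variance trend, the compared arrays alone, slide as a block, slide 2 alone, a 2-fold minimum and each array left out. A percentile with each probe counted once, and the replicate block on the compared arrays alone, were added after seeing the data.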

Additional observations from a re-analysis of the deposited data

Results flagged for a closer look

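In 1760 genes the response with MG132 (MG132+4OHT over MG132) differed from the response without it (4OHT over untreated) by limma's test of the difference itself, with an adjusted p below 0.05. The 61 of them that the rule for named genes gave or the text describes are listed here with that difference on the log2 scale, the response with MG132 minus the response without it. A positive value can be a larger rise, a smaller fall or a rise against a fall. The response without MG132 also holds culture time, which cannot be told apart from 4OHT there.

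Among immediate-early and growth factor response genes the difference was positive for Egr1 (5.25), Fosb (2.30), Egr2 (2.22), Spry4 (2.03), Fos (1.43) and Maff (1.27). It was negative for Ier5 (-2.69), Dusp2 (-2.49), Fosl1 (-2.30), Myc (-1.15) and Nr4a1 (-0.79). In the Nodal, Notch, BMP and FGF pathways it was positive for Lefty1 (5.88), Fgf10 (3.41), Dll1 (2.42), Id3 (2.17) and Dtx1 (1.60), and negative for Msx1 (-3.22). Dkk3, a Wnt antagonist relative, differed by 3.19 and Tnfrsf19 by -0.54.

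Among stress, survival and NF-kB genes it was positive for Gdf15 (2.91), Cdkn1a (2.07), Ddit3 (1.86), Cebpb (1.86), Hspa1a (1.59), Ppp1r15a (1.40), Tnfaip3 (1.38), Hspb8 (1.23), Dnajb1 (0.98), Pim1 (0.89) and Hmox1 (0.64), and negative for Bcl2l11 (-2.96), Perp (-1.44) and Psmg2 (-0.63). Among pluripotency genes it was positive for Spic (2.15) and Nanog (0.98), and negative for Gbx2 (-3.21), Foxd3 (-1.81), Otx2 (-1.03) and Sox2 (-0.61). Among genes of differentiated lineages it was positive for Gsc (3.07), Afp (2.13) and Plet1 (1.01), and negative for Gsx1 (-4.67), Cyp26a1 (-4.16), Aldh1a3 (-2.54), T (-2.07), Pou3f1 (-1.79), Evx1 (-1.58), S100a4 (-1.25), Eomes (-1.21) and Cdh2 (-1.14).

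Genes outside these lists differed by positive values in Krt76 (3.57), Tunar (3.48) and Tmem163 (3.12), and by negative values in Slc35f1 (-5.43), Slco2b1 (-4.69), Esam (-4.30), Edn2 (-4.21), Filip1l (-3.83), Chl1 (-2.96) and Fhl2 (-2.80). The values of Krt76, Cyp26a1, Filip1l, Afp, Chl1, Slc35f1 and Slco2b1 rest on a group without any array well above background, so they are fitted values and not bounds.

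All 61 kept their direction under the alternatives that gave a value, and 22 kept their call in each of them. Slide as a fixed block ended the calls of Fos, Fosb, Fosl1, Myc, Nr4a1, Nanog, Sox2, Otx2, Pou3f1, Evx1, Eomes and Aldh1a3. It also ended those of Afp, Krt76, Tunar, Fgf10, Dkk3, Tmem163, Tnfaip3, Hmox1, Perp, Psmg2, Tnfrsf19 and Filip1l. Tmem163 and Fgf10 were not called without a filter on dim probes or without most single arrays. The replicate number as a block ended 1, that of S100a4. With 3 arrays per group, no single array was tested as standing apart from its group.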

How the results depend on the processing

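Array weights gave 14951 called genes and 6049 called differences, against 7108 and 1760 in the unweighted fit. Slide as a fixed block gave 2987 and 804, slide 2 alone gave 2090 called genes, and a 2-fold minimum gave 1945 and 1042. With the replicate number as a block the counts were 8636 and 2566, with that block on the 6 compared arrays alone 10043, and with the replicate and slide blocks together 2312 and 804. Without any 1 array the counts ran from 4621 to 8826 called genes and from 1038 to 2530 differences. The count of called genes fell by over 1.5 times without MG132 replicate 2 (4723), MG132+4OHT replicate 1 (4675) or MG132+4OHT replicate 2 (4621). The count of differences did so without untreated replicate 1 (1108) or 2 (1066), MG132 replicate 1 (1129) or 2 (1091), or MG132+4OHT replicate 1 (1088) or 2 (1038). Fits on slide 2 or on the compared arrays alone cannot give the difference. All other alternatives stayed within 1.5 times of both counts, and no call of a named gene changed sign under any of them. The cause of these shifts was not tested.

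Of the named genes 24 lost their call with slide as a fixed block and 32 on slide 2 alone. The replicate block ended the call of Sdf2l1 and added Fgf10, Gata6 and Tfcp2l1. Without MG132 replicate 3, 58.9% of called genes were higher, against 52.4% with it.

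Slide 2 holds the 3 MG132+4OHT arrays and MG132 replicate 3, so a fit within it sets them against that array alone, whose spread is taken to be that of the other groups. For genes near background the size of a change depends on how background is treated, and no spot was saturated.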
